A study of Mus musculus with 15 samples.

Results

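Siglec, CD300 and PIR-type receptors are cell surface proteins with which macrophages read sialic acids, lipids and other ligands. The set described here has 9 genes, chosen by symbol from the 55335 genes of the expression table: the Siglecs Siglec1, Siglece and Cd33, the CD300 receptors Cd300a, Cd300lb, Cd300ld and Cd300lf, and the paired receptors Pirb and Pilra. Each symbol matched 1 gene. RNA-seq levels, as FPKM (fragments per kilobase of transcript scaled to the number of mapped fragments), were given for tumor-associated macrophages (TAMs) sorted from orthotopic hepatocellular carcinoma (HCC) of C57BL/6 mice. The tumors were grown in the liver from Hepa1-6 cells, a mouse hepatoma line, and the 3 groups of 5 samples differed in what the HCC cells carried: control cells, cells with lentiviral overexpression of miR-144, or cells with lentiviral overexpression of miR-451a. The overexpression was in the HCC cells and not in the macrophages, which came from the host and which the study defined by CD11b and F4/80 on their surface. All samples carry the description untreated, and age and sex were not given in the sources used here. The labels do not say that each sample came from a separate mouse, so p-values measure the spread between these samples, which may be technical. A legend of the paper gives fewer replicates per group for this RNA-seq than the labels do, and the groups here follow the labels.

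Many of these receptors come in pairs that bind similar ligands and signal in opposite ways. The inhibitory ones carry tyrosine motifs (ITIMs) in the cytoplasmic tail, which are phosphorylated by Src family kinases and recruit the phosphatases SHP-1 (Ptpn6), SHP-2 (Ptpn11) and SHIP-1 (Inpp5d). The activating ones have short tails and signal through adaptor proteins with activating motifs (ITAMs), DAP12 (Tyrobp) or the Fc receptor gamma chain (Fcer1g).

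The miRNAs that defined the groups are printed here as RefSeq gives their mature forms on GRCm38.p6, with the seed (bases 2 to 8) in capitals, because they are the agents that the tumor cells carried and their seeds differ.
miR-144-5p: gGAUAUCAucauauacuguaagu
miR-144-3p: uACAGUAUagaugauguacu
miR-451a: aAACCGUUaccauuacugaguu
All 3 lie on the plus strand of mouse chromosome 11, at chr11:78073010-78073032, chr11:78073047-78073066 and chr11:78073186-78073207. None of the 3 seeds is shared with another of them.

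The sorted cells expressed macrophage genes. Adgre1, which encodes the F4/80 antigen, averaged 137 FPKM in the control, 361 in the miR-144 and 354 in the miR-451a group, and Itgam, which encodes CD11b, had 2 entries that averaged 25.5, 63.8 and 53.4 FPKM and 49.9, 46.4 and 62.2 FPKM in the same order. Cd68, a lysosomal protein of macrophages and the most abundant gene of that marker list, moved the other way, from 1444 to 919 and 910 FPKM (log2 fold change -0.65 and -0.67, limma adjusted p = 2.59e-09 and 1.85e-09). The 7 table entries of 6 macrophage marker genes were each at 1 FPKM or more in every sample. All 4 hepatocyte markers were listed at 0 in all 15 samples, and every T cell, NK cell, mast cell and dendritic cell marker stayed under 1 FPKM. Of the 6 neutrophil markers, 5 stayed under 1 FPKM, and Csf3r averaged 70.4, 49.0 and 48.3 FPKM in the 3 groups. The summed level of 4 monocyte markers moved with the receptors that rose, at 2.39 to 3.75 FPKM in control, 7.05 to 12 with miR-144 and 6.59 to 11.1 with miR-451a. Most of it was Plac8, at 3.05, 8.46 and 7.19 FPKM, while Ccr2 averaged 0.161, 1.05 and 1.39 FPKM and Ly6c2 0.00617, 0.117 and 0.164 FPKM, and the part of monocyte markers in the receptor results was not tested. The summed level of 4 endothelial cell markers was 3.7 to 4.29 FPKM in control, 4.67 to 5.02 with miR-144 and 4.65 to 5.93 with miR-451a, most of it Kdr (2.80, 3.84 and 4.07 FPKM), which was called higher in both comparisons (log2 fold change 0.35 and 0.40, limma adjusted p = 0.00272 and 0.000807). The part of the endothelial markers in the receptor results was not tested either. The depth implied by the steps between low values was 15.9 to 31.1 M fragments per sample. Relative to control, 67.2% of the 11419 genes tested were called in the miR-144 group (47.1% higher, 20.1% lower) and 68.3% in the miR-451a group (48.1% higher, 20.3% lower), with a median log2 fold change over all genes tested of 0.13 and 0.14. Both comparisons use the same 5 control samples. Because the cells were measured in bulk, fewer cells of a type and less RNA per cell cannot be told apart.

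All 9 receptors differed from control in both miRNA groups, 6 of them higher and 3 lower. The genes that rose were Siglec1, Siglece, Cd33, Cd300a, Pirb and Pilra, and those that fell were Cd300lb, Cd300ld and Cd300lf. The calls are at an adjusted p under 0.05 in limma on log2(FPKM + 1), where 67.2% and 68.3% of all genes were also called. Siglece and Pilra were under 1 FPKM in every control sample and reached the minimum mean of 1 FPKM only through the miRNA groups, so the count over the 9 is a description. Without overlap between the groups were 9 receptors with miR-144 (6 higher, 3 lower), as were 53.9% of all genes tested (37.9% higher, 16% lower). With miR-451a 8 receptors did not overlap (6 higher, 2 lower), beside 55.2% of all genes tested (38.8% higher, 16.4% lower), and Cd300lf was the exception. The median log2 fold change over the 9 was 0.47 in the miR-144 group and 0.51 in the miR-451a group. That of all genes tested was 0.13 and 0.14. The median over the 9 includes Siglece and Pilra and is also a description.

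**Figure D1:**
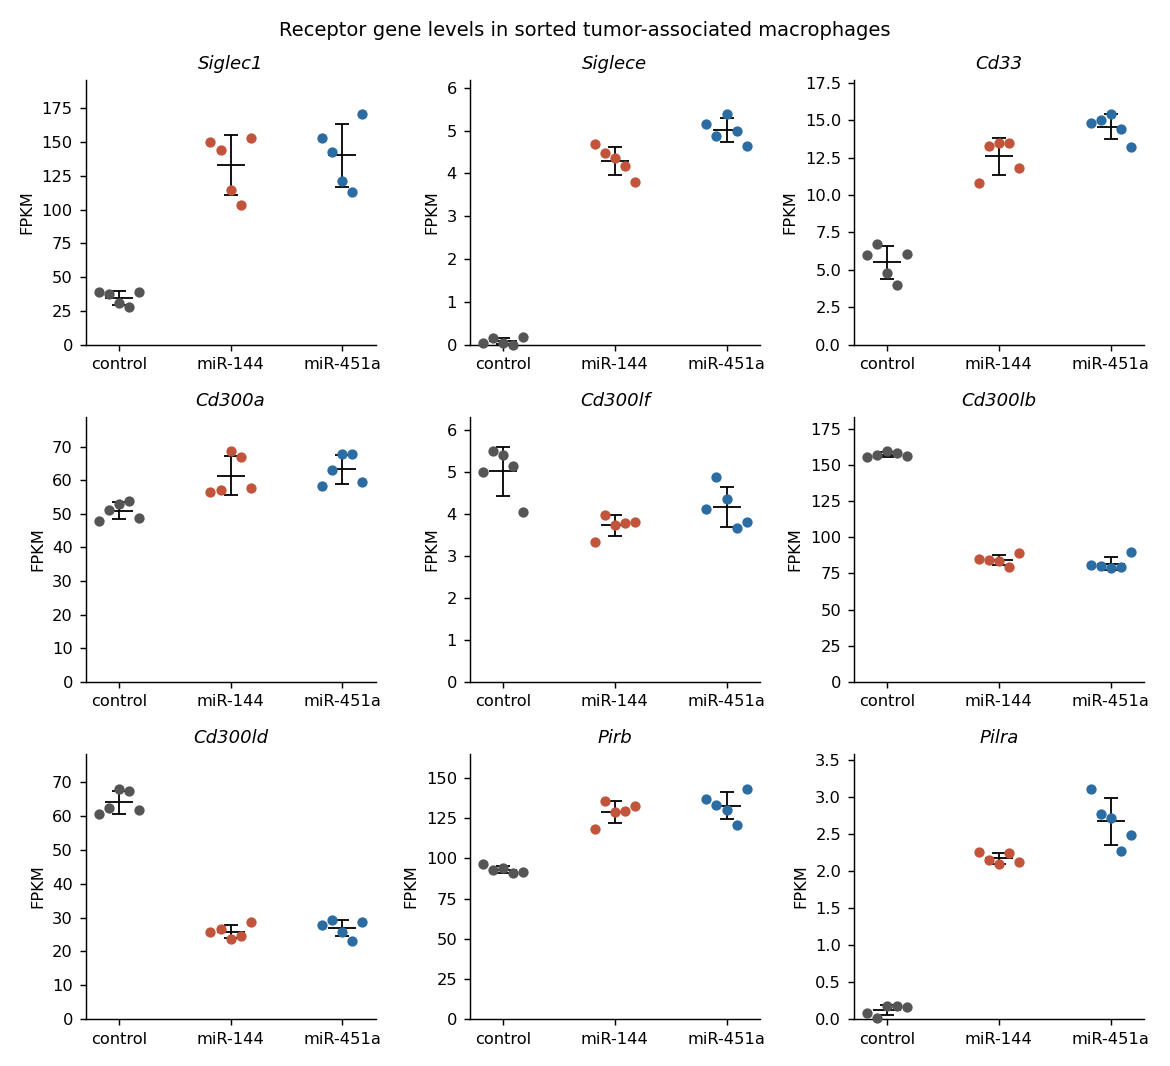
FPKM of the 9 receptor genes (vertical axes, linear and starting at 0, with a range of their own in each panel) in the control, miR-144 and miR-451a groups; points are samples 1 to 5 from left to right, and bars are the mean ± SD of 5 samples. Siglec1, Siglece, Cd33, Cd300a, Pirb and Pilra are above control in all samples of both miRNA groups, while Cd300lb and Cd300ld are below control in all of them and Cd300lf is below control with miR-144 and overlaps with it in the miR-451a group.

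Siglec1 encodes sialoadhesin (CD169), a large adhesion receptor for sialic acids whose tail carries no inhibitory motif and whose transcription is known to respond to interferon. In control TAMs it was 39.1, 37.5, 30.6, 27.8 and 38.9 FPKM in samples 1 to 5. The miR-144 samples held Siglec1 at 150.0, 144.1, 114.3, 103.5 and 152.8 FPKM. The miR-451a samples held it at 153.1, 142.9, 121.2, 113.1 and 170.5 FPKM. The lowest sample of either miRNA group lay far above the highest control sample, and samples 3 and 4 were the lowest of their group in all 3 groups. Siglec1 rose 3.82-fold in mean FPKM with miR-144 (log2 fold change 1.90, SE 0.14, limma adjusted p = 1.01e-08). With miR-451a it rose 4.03-fold (1.98, SE 0.14, limma adjusted p = 6.08e-09). The summed level of 5 Kupffer cell markers moved with Siglec1, at 3.3 to 3.77 FPKM in control, 17.1 to 50.1 with miR-144 and 16 to 47.3 with miR-451a, and its part in the result was not tested. Most of this sum was Cd5l, at 3.40, 29.8 and 27.1 FPKM in the 3 groups. Marco (0.0108, 0.208 and 0.270 FPKM), Timd4 (0.0735, 0.392 and 0.386) and Vsig4 (0.118, 0.376 and 0.291) stayed under 1 FPKM in every sample and were also called higher in both miRNA groups in a limma fit without the minimum mean, while the defining marker Clec4f was listed at 0 in all 15 samples. Siglec1 passed from the fifth highest level of the 9 genes in control to the highest in both miRNA groups, where its range overlapped with that of Pirb. Its ratio to Adgre1, the gene of the sort marker, was 0.253 ± 0.03 in control, 0.372 ± 0.0833 with miR-144 and 0.399 ± 0.0867 with miR-451a (SD, n = 5), and the lowest miR-144 value, 0.273, lay inside the control range, which reached 0.279. Its ratio to Csf1r, another macrophage gene, was 0.0867 ± 0.0129 in control, 0.192 ± 0.0302 with miR-144 and 0.201 ± 0.0253 with miR-451a (SD, n = 5), and there the highest control value of 0.0967 lay below the lowest miRNA value of 0.154.

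Siglece encodes Siglec-E, the main ITIM-bearing inhibitory Siglec of mouse myeloid cells. It was nearly undetected in control TAMs, at 0.0457, 0.152, 0.0334, 0 and 0.178 FPKM, and 3 of these 5 values were at or under the level of 3 fragments. The miR-144 samples gave 4.68, 4.47, 4.35, 4.17 and 3.81 FPKM for Siglece. The miR-451a samples gave 5.16, 4.87, 5.38, 4.98 and 4.65 FPKM. Every sample of both miRNA groups exceeded every control sample, with little spread inside either group. Mean Siglece FPKM was 52.5 times control with miR-144 and 61.2 times control with miR-451a, a ratio that rests on a few fragments in control. The pseudocount of 1 shrinks changes of genes this low, and the log2 differences were 2.29 (SE 0.06, limma adjusted p = 4.9e-14) and 2.48 (SE 0.06, limma adjusted p = 1.93e-14). With a pseudocount of 0.1 in place of 1, they were 4.70 and 4.92.

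Cd33, a Siglec of myeloid cells and their precursors, was the third Siglec of the set and also rose. Its control samples were at 5.99, 6.73, 4.78, 3.97 and 6.07 FPKM. Those of the miR-144 group were at 10.8, 13.3, 13.5, 13.5 and 11.8 FPKM. Those of the miR-451a group were at 14.8, 15, 15.4, 14.4 and 13.2 FPKM. The control range lay apart from both miRNA ranges, which overlapped with each other. The increase of Cd33 was 2.29-fold with miR-144 (log2 fold change 1.08, SE 0.10, limma adjusted p = 2.21e-07) and 2.64-fold with miR-451a (1.27, SE 0.10, limma adjusted p = 2.97e-08).

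Few other Siglecs were expressed. Of 6 further family members in the table, 2 had a mean of at least 1 FPKM. Cd22, a Siglec best known from B cells, fell from 9.17 ± 1.46 FPKM in control to 3.64 ± 0.272 with miR-144 and 3.72 ± 0.319 with miR-451a (SD, n = 5; log2 fold change -1.12 and -1.10, limma adjusted p = 1e-08 and 1.22e-08). The summed level of 4 B cell markers moved the other way, from 0.138 to 0.375 FPKM in control to 1.11 to 1.45 with miR-144 and 1.17 to 1.73 with miR-451a, most of it Cd79b. Mag was at 1.03, 0.946 and 1.20 FPKM in the 3 groups and was not called. Siglecf lies in the same cluster of chromosome 7 as Cd33 and Siglece and was named after its values were seen. It had a mean of 2.26 FPKM in control and of 0.357 and 0.355 in the miRNA groups (log2 fold change -1.27 in both, in a fit without the minimum, limma adjusted p = 8.82e-09 and 8.51e-09), where 32.8% and 34.2% of all genes were called. The summed level of the eosinophil markers, a list that includes Siglecf, was 2.43 to 2.98 FPKM in control, 0.839 to 0.990 with miR-144 and 0.615 to 1.08 with miR-451a. The fall of this sum was that of Siglecf itself: of the other members, Ccr3 averaged 0.437, 0.559 and 0.480 FPKM, Prg2 was listed at 0 in all samples and Epx did not exceed 0.0146 FPKM.

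In the GENCODE M21 annotation of GRCm38, 4 of the 9 receptor genes lie in the CD300 locus, a stretch of 244 kb at chr11:114890041-115133992 that holds 11 CD300 genes. Cd300a stands at one edge on the plus strand (chr11:114890041-114904654), and Cd300lf at the other on the minus strand (chr11:115116214-115133992). The genes of this locus moved in both directions.

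Cd300a encodes an ITIM-bearing receptor for phosphatidylserine and phosphatidylethanolamine, lipids that dying cells expose. Its control values were 48.0, 51.3, 53.0, 53.8 and 48.8 FPKM. With miR-144 they were 56.6, 57.2, 68.6, 66.9 and 57.7 FPKM. With miR-451a they were 58.4, 63.1, 67.7, 67.7 and 59.4 FPKM. The miRNA ranges lay just above that of control, and samples 3 and 4 were the highest of their group in all 3 groups, the opposite of Siglec1. The increase was small, 1.20-fold with miR-144 (log2 fold change 0.26, SE 0.06, limma adjusted p = 0.00185) and 1.24-fold with miR-451a (0.31, SE 0.06, limma adjusted p = 0.000497). After centring each sample on its median, the miR-144 difference of Cd300a was 0.13 and was no longer called (limma adjusted p = 0.11), and that with miR-451a was 0.16 (limma adjusted p = 0.0441).

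Cd300lb encodes an activating CD300 receptor that pairs with DAP12, and it had the highest level of the 9 genes in control TAMs. The 5 control samples agreed closely, at 155.8, 156.7, 159.5, 158.5 and 156.2 FPKM. The miR-144 samples were at 84.9, 84.4, 83.9, 79.5 and 89.3 FPKM for Cd300lb. The miR-451a samples were at 80.6, 80.5, 78.8, 79.2 and 89.8 FPKM. All 10 samples of the miRNA groups were far below the lowest control sample, and sample 5 was the highest in both miRNA groups. Cd300lb fell 1.86-fold with miR-144 (log2 fold change -0.89, SE 0.04, limma adjusted p = 1.54e-11) and 1.92-fold with miR-451a (-0.94, SE 0.04, limma adjusted p = 8e-12).

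Cd300ld, which encodes an activating receptor coupled to the Fc receptor gamma chain, fell by a larger fold. Control samples held it at 60.8, 62.4, 68.2, 67.5 and 61.8 FPKM. It was 25.7, 26.5, 23.6, 24.6 and 28.6 FPKM in the miR-144 samples. It was 27.8, 29.3, 25.8, 23.1 and 28.6 FPKM in the miR-451a samples. The highest value of either miRNA group did not reach the lowest control value. The decrease of Cd300ld was 2.49-fold with miR-144 (log2 fold change -1.28, SE 0.06, limma adjusted p = 1.25e-10) and 2.38-fold with miR-451a (-1.23, SE 0.06, limma adjusted p = 1.98e-10).

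Cd300lf encodes an ITIM-bearing CD300 receptor that binds phosphatidylserine and ceramide, and it differed least among the 3 genes that fell. In control it was 4.98, 5.48, 5.40, 5.14 and 4.04 FPKM. The miR-144 values of Cd300lf were 3.32, 3.96, 3.73, 3.77 and 3.81 FPKM. Its miR-451a values were 4.10, 4.88, 4.34, 3.67 and 3.79 FPKM. Control sample 5 was the lowest of its group and lay just above the miR-144 range and inside the miR-451a range. The decrease was 1.35-fold with miR-144 (log2 fold change -0.35, SE 0.07, limma adjusted p = 0.000758) and 1.20-fold with miR-451a (-0.22, SE 0.07, limma adjusted p = 0.0159). Rescaled to TPM (FPKM brought to the same total in every sample), the miR-451a difference was -0.17 and was not called (limma adjusted p = 0.0952), whereas it was -0.36 after median centring and -0.37 after quantile normalization (limma adjusted p = 0.000641 and 0.000571).

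Of 8 further family members, 5 had a mean of at least 1 FPKM, and 4 of these were called higher and 1 lower in each comparison with control, beside 47.1% and 48.1% of all genes called higher and 20.1% and 20.3% called lower. Higher calls made up 70.1% and 70.3% of the calls over all genes (50% and 49.6% after median centring), so the split in the family is near that background. Cd300ld4 rose from 19.9 ± 0.937 FPKM to 30.6 ± 3.36 with miR-144 and 29.6 ± 3.55 with miR-451a (SD, n = 5). Cd300ld2, Cd300ld5 and Cd300ld3 rose by 0.54, 0.40 and 0.31 (log2) with miR-144. Cd300c2, an activating receptor with the highest level of the whole CD300 family in all 3 groups, fell from 253 ± 8.15 FPKM to 207 ± 8.16 and 201 ± 6.65 (SD, n = 5; log2 fold change -0.29 and -0.33, limma adjusted p = 3.13e-06 and 6.14e-07). Cd300e, named after its values were seen because it lies next to Cd300lf, had a mean of 0.0821 FPKM in control, 1.28 in the miR-144 group and 1.13 in the miR-451a group. The ratio of the inhibitory Cd300a to the activating Cd300lb, neighbours in the locus, is unaffected by any single scaling factor per sample. It was 0.324 ± 0.0132 in control, 0.730 ± 0.0918 with miR-144 and 0.777 ± 0.0852 with miR-451a (SD, n = 5). Its highest control value of 0.339 lay below the lowest miRNA value of 0.646.

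**Figure D2:**
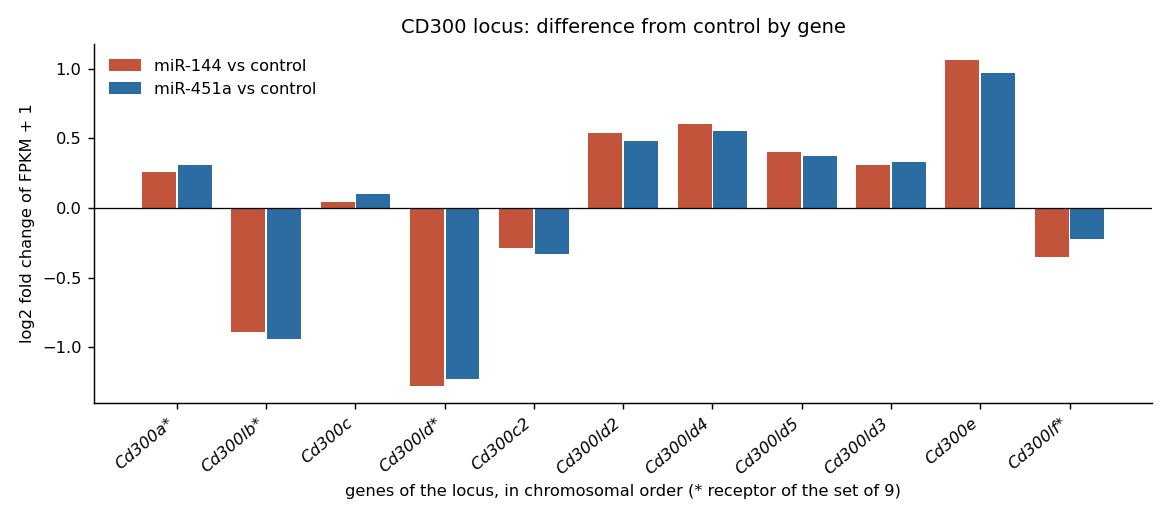
Log2 fold change of FPKM + 1 against control (vertical axis) for the 11 genes of the CD300 locus in chromosomal order, with miR-144 in red and miR-451a in blue and an asterisk at the 4 genes of the set of 9. Cd300lb and Cd300ld show the deepest decreases (-0.89 and -1.28 with miR-144), Cd300e the tallest increase (1.06), and Cd300c and Cd300e, which are under the minimum mean of 1 FPKM, come from the fit without it.

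Pirb encodes paired immunoglobulin-like receptor B, an ITIM-bearing receptor for MHC class I molecules. Its FPKM in control was 96.5, 92.5, 93.9, 90.7 and 91.3. The miR-144 samples had 118.1, 135.8, 129.0, 129.4 and 132.8 FPKM of Pirb. The miR-451a samples had 136.8, 133.0, 130.4, 120.6 and 143.5 FPKM. The control values were tight and lay below all values of the miRNA groups, whose ranges overlapped. Pirb rose 1.39-fold with miR-144 (log2 fold change 0.47, SE 0.05, limma adjusted p = 2.7e-07) and 1.43-fold with miR-451a (0.51, SE 0.05, limma adjusted p = 9.8e-08). Of the 50-base stretches in its longest transcript, 37.3% are shared with other genes, above all Lilra6, so the level of Pirb is uncertain where reads could be split among its relatives. Its activating relative Pira2 was 21.0 ± 1.39 FPKM in control and 25.3 ± 1.17 and 25.7 ± 1.91 in the miRNA groups (SD, n = 5), and the ratio of Pirb to Pira2 was 4.44 ± 0.270, 5.10 ± 0.229 and 5.18 ± 0.292.

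Pilra encodes paired immunoglobulin-like type 2 receptor alpha, an ITIM-bearing receptor for sialylated O-glycans. The control samples were at 0.0857, 0.0117, 0.169, 0.173 and 0.155 FPKM, and 1 of them was under the level of 3 fragments. The miR-144 samples were at 2.26, 2.15, 2.09, 2.24 and 2.12 FPKM for Pilra. The miR-451a samples were at 3.11, 2.77, 2.71, 2.27 and 2.48 FPKM. Control lay far below both miRNA groups, and the lowest miR-451a sample (2.27) was just above the highest miR-144 sample (2.26). The ratio of means to control was 18.3 with miR-144 (log2 fold change 1.51, SE 0.06, limma adjusted p = 8.6e-12) and 22.5 with miR-451a (1.71, SE 0.06, limma adjusted p = 1.88e-12). With a pseudocount of 0.1, the log2 fold changes of Pilra were 3.45 and 3.73.

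The activating partners of Pilra stand next to it on chromosome 5 and were likewise low in control. Like Pilra, both reached the minimum mean only through the miRNA groups, so their calls are descriptions. Pilrb1 had a mean of 0.0358 FPKM in control and 1.93 in both miRNA groups (log2 fold change 1.5 and 1.49, limma adjusted p = 5.24e-11 and 5e-11). Pilrb2 was at 0.0921 FPKM in control, 3.55 with miR-144 and 3.38 with miR-451a (log2 fold change 2.05 and 2, limma adjusted p = 5.83e-12 and 7.25e-12). The ratio of Pilra to Pilrb2 was 1.57 ± 1.51 in control, 0.621 ± 0.0795 with miR-144 and 0.794 ± 0.0882 with miR-451a (SD, n = 5). Its control range of 0.157 to 4.1 rests on very low levels and held both miRNA ranges. Pilra shared 7.28% of its 50-base stretches with other transcripts, mostly of Pilrb1, so reads could be split between them. Of 15 names listed as relatives of Pirb and Pilra, 7 matched the table, with 8 entries, and of the Pira names only Pira2 did. The symbol Lilra6 was not on this list, and its level was not examined. Of these 8 entries, 5 were called higher and none lower in each comparison with control, Pilrb1 and Pilrb2 included, beside 67.2% and 68.3% of all genes called (47.1% and 48.1% higher). Lair1, an inhibitory receptor for collagen, rose from 6.51 ± 0.719 FPKM to 12.8 ± 1.61 and 12.4 ± 0.803 (SD, n = 5).

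Directions differed within the signalling classes. Of the 5 ITIM-bearing members, Siglece, Cd300a, Pirb and Pilra rose and Cd300lf fell. Both adaptor-coupled members, Cd300lb and Cd300ld, fell. Among the relatives named as activating above, Pilrb1, Pilrb2 and Pira2 rose and Cd300c2 fell. Cd300e, Cd300ld2, Cd300ld3, Cd300ld4 and Cd300ld5, whose class is not given here, also rose. Of all genes tested, 47.1% and 48.1% were called higher and 20.1% and 20.3% lower, and with so few members per class nothing is read from these counts.

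**Figure D3:**
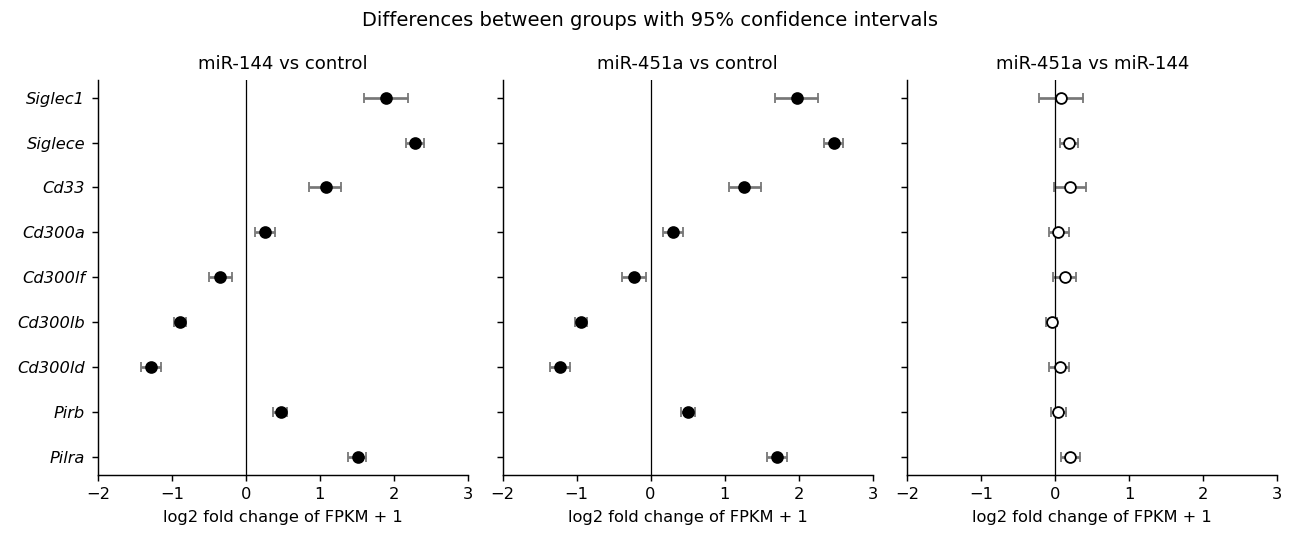
Log2 fold change of FPKM + 1 (horizontal axis, 95% confidence interval from limma) of the 9 receptor genes in the 3 comparisons, with filled points where the adjusted p was under 0.05 and open points elsewhere. All 9 points are filled in both comparisons with control, from -1.28 for Cd300ld to 2.29 for Siglece with miR-144, and all 9 are open between the miRNA groups.

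The summed level of the 9 genes was higher in both miRNA groups, without overlap with control, and its composition also changed. The sum was 411 ± 3.52 FPKM in control, 456 ± 22.1 with miR-144 and 471 ± 33.0 with miR-451a (SD, n = 5). Its ranges were 407.4 to 415.7, 427.6 to 482.8 and 429.1 to 516.0 FPKM in that order. In control, Cd300lb made up 38.3 ± 0.401% of this sum and Siglec1 8.47 ± 1.28%. With miR-144, Siglec1 made up 29.0 ± 3.79% and Cd300lb 18.5 ± 0.389%, and with miR-451a they made up 29.6 ± 2.93% and 17.4 ± 0.694%. The share of Cd300a was nearly level, at 12.4 ± 0.604% in control and 13.5% in both miRNA groups, and its ranges overlapped. In control, the order of levels was Cd300lb, Pirb, Cd300ld, Cd300a, Siglec1, Cd33, Cd300lf, Pilra and Siglece, where Cd33 and Cd300lf overlapped, as did Pilra and Siglece. In both miRNA groups it was Siglec1, Pirb, Cd300lb, Cd300a, Cd300ld, Cd33, Siglece, Cd300lf and Pilra, where Siglec1 and Pirb overlapped, as did Siglece and Cd300lf.

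None of the 9 receptors was called between the miR-451a and the miR-144 group, a comparison that asks whether the 2 miRNAs left different marks on TAMs. Over all 11419 genes, limma called 0% at an adjusted p under 0.05, and 596 genes (5.22%) had an unadjusted p under 0.05. Pilra was higher with miR-451a by 0.20 on the log2 scale (95% interval 0.08 to 0.33, limma unadjusted p = 0.00403, adjusted p = 0.826). Siglece was higher by 0.18 (0.06 to 0.31, limma unadjusted p = 0.00626, adjusted p = 0.827). Pilra and Siglece were the 2 receptors with an unadjusted p under 0.05, and Pilra was the 1 receptor whose miRNA groups did not overlap, as was the case for 0.849% of all genes tested (0.552% higher, 0.298% lower). The interval of Cd33 ran from -0.02 to 0.42, that of Siglec1 from -0.22 to 0.37 and that of Cd300lb from -0.13 to 0.03. Differences beyond these bounds lie outside the 95% intervals. The fit had no replicate block, so the Siglec1 interval also holds its variation with the sample number, described below.

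The genes through which these receptors signal were also examined, as lists. Both ITAM adaptors of the CD300 and PIR families rose: Tyrobp (DAP12) from 952 ± 55.1 FPKM to 1112 ± 45.6 and 1083 ± 71.7 (SD, n = 5; log2 fold change 0.23 and 0.19, limma adjusted p = 0.0013 and 0.00506), and Fcer1g from 388 ± 24.9 to 567 ± 19.2 and 556 ± 15.8 (0.55 and 0.52, limma adjusted p = 2.16e-08 and 3.67e-08). They rose while their receptors Cd300lb and Cd300ld fell, though the change of Tyrobp was near the median of all genes, 0.13 and 0.14. Of the 3 adaptors listed, 2 were called higher in the miR-144 group and 3 in the miR-451a group, beside 47.1% and 48.1% of all genes. The third, Hcst, is not one of the 2 ITAM adaptors above and was not called with miR-144 (limma adjusted p = 0.14).

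The ITIM phosphatases were called higher in 4 of 4 for miR-144 and in 3 of 4 for miR-451a, beside 47.1% and 48.1% of all genes called higher, and the median log2 fold change of the 4 was 0.73 and 0.68 where that of all genes was 0.13 and 0.14. Ptpn6, which encodes SHP-1, rose from 53.1 ± 2.61 FPKM to 124 ± 11.6 and 123 ± 8.71, and Inpp5d, which encodes SHIP-1, from 23.2 ± 0.708 to 44.6 ± 1.97 and 44.5 ± 0.688 (SD, n = 5). Ptpn11, which encodes SHP-2, differed less, at 15.2 ± 0.543, 16.4 ± 0.570 and 15.9 ± 0.309 FPKM, and was not called with miR-451a (limma adjusted p = 0.0749). Among 6 kinases tested, 3 rose and 2 fell in each comparison with control, beside 47.1% and 48.1% of all genes called higher and 20.1% and 20.3% called lower. Lyn, a Src family kinase of myeloid cells, rose from 20.2 to 62.4 and 60.7 FPKM, whereas Src fell from 9.04 to 3.07 and 3.06 and Fyn from 15.3 to 7.57 and 8.27.

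Genes that make and attach sialic acid, the ligand of the Siglecs, moved both ways. Of 15 tested, 7 were called higher and 6 lower in each comparison with control, beside 47.1% and 48.1% of all genes called higher and 20.1% and 20.3% called lower. The median log2 fold change of the 15 was 0.13 and 0.21. Nans, the sialic acid synthase, fell from 21.4 ± 0.705 FPKM to 8.88 ± 0.240 and 9.06 ± 0.229 (SD, n = 5; log2 fold change -1.18 and -1.16, limma adjusted p = 4.97e-14 and 6.12e-14). Casd1, which acetylates sialic acids, rose from 5.16 ± 0.323 to 9.03 ± 0.557 and 8.89 ± 0.512 FPKM, and St8sia4, a polysialyltransferase, rose from 4.35 ± 0.217 to 7.04 ± 0.315 and 7.46 ± 0.679. St6galnac4 fell by 1.07 and 1.06 on the log2 scale, with SEs of 0.24. Of the 2 genes tested that remove or trim sialic acids, Siae and Neu1, both were called higher in the miR-144 group and 1, Siae, in the miR-451a group, beside 47.1% and 48.1% of all genes. Their log2 fold changes were small, 0.22 and 0.27 for Siae and 0.11 and 0.09 for Neu1, where the median of all genes was 0.13 and 0.14.

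**Figure D4:**
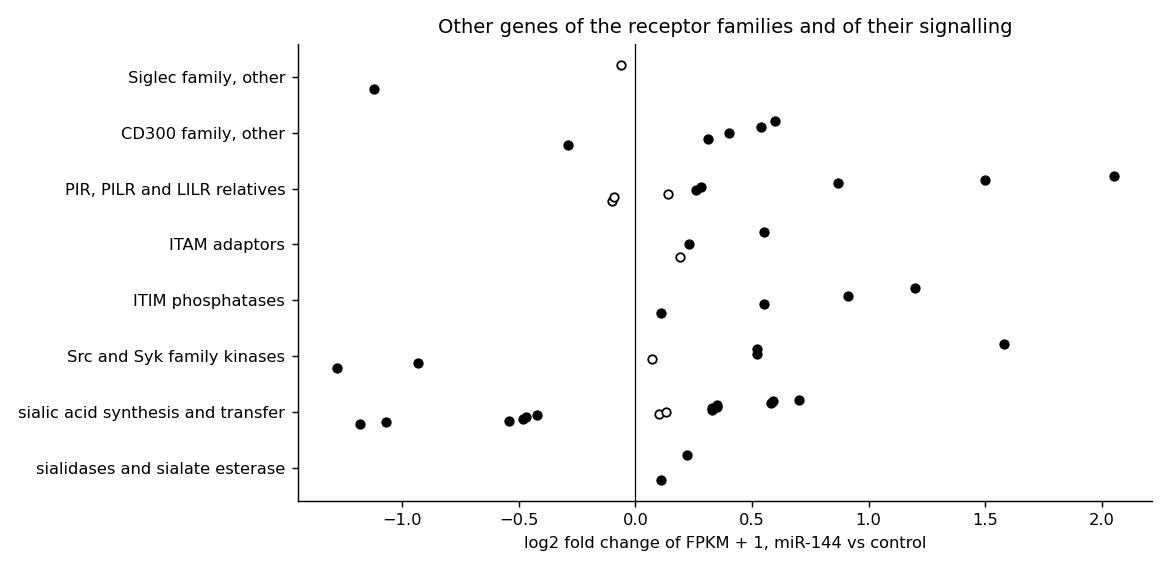
Log2 fold change of FPKM + 1 with miR-144 against control (horizontal axis) for the genes tested in each list of relatives and signalling partners (rows), with filled points at an adjusted p under 0.05 and open points elsewhere; the vertical position inside a row only separates points. The Pilrb2 point at 2.05 is the farthest to the right, the phosphatases all lie above 0, and the sialic acid genes spread from -1.18 to 0.70.

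Promoter windows were searched because 6 of the 9 genes rose together. RefSeq windows of GRCm38.p6, 250 bases before to 50 after the start, were matched for 8 of the 9 genes (not Siglec1). The letters searched on both strands were GAGGAA, a core bound by the myeloid factor PU.1, and GAAANNGAA, the spacing of interferon response elements. GAGGAA was found in 7 of 8 windows, all except that of Cd300lb, and in 28.3% of 32851 promoter windows. GAAANNGAA was found in those of Pilra and Cd300lf and in 8.56% of all windows. The windows around 1 match of 5 genes are printed on the strand of the gene, with the match or its reverse complement in capitals, to show genes that rose (Pilra, Siglece, Pirb) beside genes that fell (Cd300lf, Cd300ld).
Pilra: agccacttagGAAATGGAAaacagtagata
Cd300lf: ggagcccctgTTCTCTTTCcagaagtcagt
Siglece: tctgaagctcTTCCTCctgaggcagccact
Pirb: tcacaccattGAGGAAgtcagagcatggtg
Cd300ld: ctactcattaGAGGAAgttccctgttcacc
These lie at chr5:137836437-137836466, chr11:115134117-115134146, chr7:43660229-43660258, chr7:3720483-3720512 and chr11:114990010-114990039, in that order and all on the minus strand. Both letter strings occurred in genes that rose and in genes that fell, and a match is a description of letters, not of a bound site.

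For each receptor, the tested genes with the most similar profile over the 15 samples were listed by Pearson's r on log2(FPKM + 1). These samples share the 3 groups, so r mostly reflects the step between control and miRNA groups. For Siglec1 they were the interferon-inducible genes Ifi213 (r = 0.998), Irf7 (0.997) and Ifi209 (0.997), and 1188 genes had an r of at least 0.95. Cd300a had Cd93 (0.976), Cfp (0.968) and Mertk (0.964), with 16 genes at 0.95 or more. Cd300lf, with a best r of 0.916 for Prdx4, then 0.910 for Ufsp2 and 0.878 for Itsn2, had none. For Siglece the 3 genes were Nlrp3, Cyp4f16 and Lifr (0.998 each), for Cd33 they were Pik3r6 (0.988), Nlrp1b (0.984) and Stard8 (0.982), and for Pilra they were Ppfia4 (0.996), Dlg4 (0.995) and Fam214a (0.995). Those of Pirb were Myo18a (0.988), Hdac5 (0.985) and Zfp36l2 (0.985), those of Cd300lb were Atf3 (0.998), Galnt6 (0.997) and B4galt5 (0.997), and those of Cd300ld were Stra6l (0.996), Wdr91 (0.995) and Fam83f (0.995).

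Within groups, Siglec1 and Cd300a deviated from their group means in opposite directions, with r = -0.919 over the 15 samples, whose deviations share depth and library. This pair was picked after the values were seen, as the most extreme of 36 pairs of receptors, and the other r lay between -0.498 and 0.604. Averaged over the 3 groups, the deviation of Siglec1 on the log2 scale was 0.17, 0.10, -0.19, -0.31 and 0.23 for the samples numbered 1 to 5, and that of Cd300a was -0.10, -0.03, 0.11, 0.10 and -0.08. The labels do not say what these numbers stand for.

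**Figure D5:**
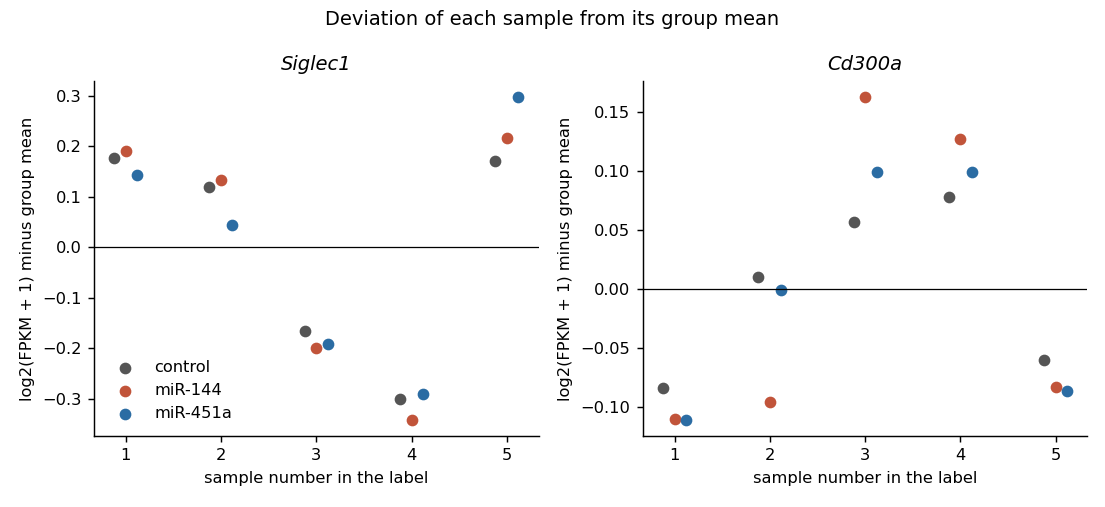
Deviation of log2(FPKM + 1) from the group mean (vertical axes, with a range of their own) for Siglec1 and Cd300a in each sample, by the number in its label (horizontal axis), with the groups side by side in 3 colors; the pair was picked after the values were seen. In all 3 groups the samples numbered 3 and 4 lie below 0 for Siglec1 and above 0 for Cd300a.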

How the data were processed

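RNA-seq of 15 TAM samples was analysed, 5 per group, with groups and numbers from the sample labels. The sequencing was done on an Illumina HiSeq system, and the authors deposited FPKM for each gene in each sample. Per the labels, FastQC 0.11.2, STAR and StringTie were used; the genome build and annotation are not given in the sources used here. Steps between low values gave the implied depth, but only 32.6% to 56.2% of them lay on a step (10% by chance), so no counts were recovered. The level of 3 fragments covers counting error only.

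limma 3.58.1 (R 4.3.3) was fitted to log2(FPKM + 1) in 1 model of 3 groups with a mean-variance trend. Genes entered at an average of 1 FPKM or more over all samples, and p-values of these 11419 were adjusted together (Benjamini-Hochberg). The fit was tested on simulated data. Positions, transcripts and shared 50-base stretches came from GENCODE M21, matched by gene identifier. Python 3.11.15, numpy 2.4.6, pandas 2.3.3 and matplotlib 3.10.9 were used for the rest. The lowest mean chi-square between samples of a group was 8.56 over 30 pairs, so no sample was counted as a duplicate.

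The receptors and lists were chosen with earlier results of these data known. All 9 receptors were named. Of most lists, up to 4 called genes with the largest change were named, and the adaptors and phosphatases of the receptors. All 5 tested CD300 relatives were named, and Pira2 was named as a relative of Pirb. A gene of the kinase list is not reported here. A protein motif count planned for the receptors was not run. Alternatives were pseudocount, minimum level, scaling, replicate block, variance model, groups in the fit and leaving out each sample.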

Additional observations from a re-analysis of the deposited data

Results flagged for a closer look

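Cd300lb in the miR-451a group had its highest sample, number 5, at 89.8 FPKM, while the nearest of the other 4 was at 80.6. The gap took up 0.829 of the range of the group, above Dixon's 95% limit of 0.71 for 5 samples. The value was still far below the lowest control sample of 155.8 FPKM. Of 27 groups examined (9 receptors in 3 groups), 1 passed that limit, where chance gives 1.35.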

How the results depend on the processing

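The 9 receptors kept their direction against control in every alternative in which they could be tested. Of the receptor fold changes in alternatives, 212 kept direction and side of the threshold in each comparison with control, and 1 in each was no longer called: Cd300a with miR-144 under median centring (0.13, limma adjusted p = 0.11) and Cd300lf with miR-451a after rescaling to TPM (-0.17, limma adjusted p = 0.0952). The count of receptors called was thereby 8 in these fits in place of 9. Between the miRNA groups, Siglec1 changed sign without miR-144 replicate 4 (-0.01, limma adjusted p = 0.996), ranged from there to 0.15 over the fits that left out a sample, and was called in none. The cause was not tested. Siglece and Pilra moved with the scale: with a pseudocount of 0.1 Siglece was 4.70 and 4.92, and after rescaling to TPM, where a pseudocount of 1 weighs less, Siglece was 3.66 and 3.89 and Pilra 2.63 and 2.90. A minimum mean of 5 FPKM left Cd300lf, Pilra and Siglece untested, the other 6 called against control, and gave 4776 and 4821 calls among 6639 genes. The share of higher calls among all genes was 70.1% and 70.3%, and 50% and 49.6% after median centring. Between the miRNA groups, leaving out miR-144 replicate 4 or 5 or miR-451a replicate 3 gave 2 calls over all genes, and miR-451a replicate 5 gave 1. The replicate numbers were not treated as a pairing because the labels do not say what they stand for. Of 15 correlations between same-numbered samples, 8 were over 0.1 (range -0.15 to 0.264), and 8 were the best of their sample. The numbers were therefore not shown to be without structure, and 184 of 11419 genes (1.61%) were called by number. With the replicate block, 9, 9 and 0 receptors were called, as without it, and 7711, 7859 and 0 genes overall. Among the 9 receptors, Siglece and Pilra had control values at or under the level of 3 fragments, which was not computed for other genes.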

Other observations

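Siglec1 varied with the number in the sample label more than nearly all other genes. In a limma F test on the numbers 1 to 5 with the 3 groups in the fit, chosen after seeing the data, Siglec1 ranked 4 of 11419 genes (F = 69.02, limma adjusted p = 0.000543). Cd300a ranked 148 (F = 12.7, limma adjusted p = 0.0403), and the other 7 receptors were not called. Over all genes 184 were called (1.61%), and 1393 (12.2%) had an unadjusted p under 0.05. Siglec1 was lowest in sample 4 and next lowest in sample 3 in 3 of 3 groups, and Cd300a was highest in samples 3 and 4 in 3 of 3 groups.

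The 10 genes that ranked highest were, in order, Krcc1, Rasgrp3, Ifit3, Siglec1, Oas3, Fgd3, Irf7, Slco2b1, Ifi206 and Rgl1. Of these, Irf7, a transcription factor of the interferon response, was chosen for its values after they were seen. It was at 9.13, 9.39, 6.41, 5.04 and 9.29 FPKM in control samples 1 to 5, and at 40.6, 39.4, 29.3, 27.1 and 45.1 in those of the miR-144 group. After taking out the group means, the 3 genes nearest to Siglec1 were Oas1a (r = 0.983), Nlrc5 (0.982) and Oas3 (0.981), and 38 genes had an r of at least 0.95, over 15 deviations that share depth and library. The implied depth averaged 22.6, 22.8, 23.0, 26.0 and 23.0 M fragments for the numbers 1 to 5, and its part in the result was not tested. In both miRNA groups Adgre1 was also highest in samples 3 and 4, at 394.2 and 378.9 FPKM with miR-144 and 368.3 and 380.2 with miR-451a, and in control it was lowest there, at 130.7 and 132.5.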
